A study of Sus scrofa with 6 samples.

Results

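Aminoacyl-tRNA synthetases are the enzymes that join each amino acid to its transfer RNA, and their mRNA levels were compared here between pig epiblast stem cells and pig fibroblasts. The set was chosen by gene symbol and held 38 listed genes, of which 37 were found among the 20131 genes of the expression table. FARSB, a subunit of the cytosolic phenylalanine enzyme, had no matching symbol and was not analysed here. The 37 were 17 cytosolic enzymes, 16 mitochondrial enzymes, 2 enzymes whose single gene serves both compartments (GARS1 and KARS1), and 2 scaffold proteins without enzyme activity (AIMP1 and AIMP2).

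The pgEpiSC group was 4 libraries of pig pre-gastrulation epiblast stem cells, which trace to the epiblast of embryos at embryonic day 10, and the pEF group was 2 libraries of porcine embryonic fibroblasts from fetuses at embryonic day 30. The labels name no treatment, strain or genetic change in either group, and the design text calls the libraries biological replicates without saying whether they were separate lines, cultures or animals. The p-values therefore measure the spread between these libraries, which may be technical in part. Each library was made from rRNA-depleted total RNA with its strand kept, and its values are TPM, a level per transcript length that allows genes to be compared within a library.

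Mammalian cells carry parallel sets of these enzymes. The cytosolic set charges the tRNAs that read nuclear mRNAs, and several of its members sit together with AIMP1 and AIMP2 in a multi-synthetase complex. The mitochondrial set is also encoded in the nucleus, is imported, and charges the tRNAs that read the few mRNAs of the mitochondrial genome, all of them for the respiratory chain and ATP synthase. When an amino acid runs short, uncharged tRNA activates the kinase GCN2 (EIF2AK4), translation of the transcription factor ATF4 rises, and many cytosolic synthetase genes are among its known targets. WARS1 is in addition a classic interferon-induced gene.

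Column totals ran from 157288 to 320206 TPM in pgEpiSC and were 93556 and 145611 TPM in pEF, so all levels and folds below use TPM divided by a median-ratio factor for each library (0.751, 2.072, 1.419 and 0.773 for pgEpiSC-1 to pgEpiSC-4, 0.606 and 0.967 for pEF-1 and pEF-2), called scaled TPM. The labels give read depth only as an average over libraries, and TPM does not keep it. The scaling decides many calls. The median log2 fold of the 10424 tested genes, pgEpiSC over pEF, was 0.07 on scaled TPM and 0.48 on TPM as deposited. The marker genes followed the labels: 6 epiblast genes (NANOG, LIN28A, PRDM14, OTX2, EPCAM and CDH1) summed to between 406 and 571 scaled TPM in pgEpiSC and to at most 0.304 in pEF, while 6 fibroblast genes (COL1A2, COL3A1, COL5A2, PRRX1, TAGLN and S100A4) summed to between 9.37 and 13.1 in pgEpiSC and to 1720 and 2480 in pEF. The 9 genes of endothelium, blood, trophectoderm and endoderm that were in the table summed to at most 0.676 scaled TPM in any library. The pgEpiSC libraries were not equally alike. Libraries 1 and 4 differed by a median of 0.11 log2 units over the tested genes, and the other pgEpiSC pairs by 0.23 to 0.35. The pEF libraries differed by 0.19.

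KARS1, the lysine enzyme of both compartments, had the highest mean level of the set in each cell type. Its scaled TPM was 59.1, 63.4, 48.2 and 54.1 in pgEpiSC-1 to pgEpiSC-4 and 56.9 and 66.1 in pEF-1 and pEF-2, so the groups overlapped and more than 96% of tested genes lay below its mean in each. In pgEpiSC the order went on with LARS1 (leucine, 53.1 ± 6.89, SD, n = 4), NARS1 (asparagine, 43.7 ± 13.7) and RARS1 (arginine, 38.5 ± 11.4), whose ranges overlapped. IARS1 (isoleucine, 22.6 ± 1.81) came next with every library below those 3, and TARS1 (threonine, 21.8 ± 8.18) overlapped with RARS1 and IARS1. In pEF the order after KARS1 was AARS1 (alanine, 40.1 ± 16.8, SD, n = 2), SARS1 (serine, 36.4 ± 13.6), NARS1 (27.9 ± 3.18) and WARS1 (tryptophan, 26.4 ± 15.5), which also overlapped. LARS1 and RARS1 thus had ranks 2 and 4 in the stem cells and ranks 8 and 12 in the fibroblasts. Mitochondrial enzymes had lower levels than cytosolic ones by the median of the tested members' means, 3.86 against 14.8 in pgEpiSC and 2.04 against 14.8 in pEF, although single members overlapped. The tested mitochondrial members ranged in mean from 1.02 (VARS2) to 7.27 (RARS2) in pgEpiSC and from 0.475 (AARS2) to 5.22 (RARS2) in pEF. TARS3, a second cytosolic threonine enzyme, was at 0.299, 0.294, 0.588 and 0.490 in pgEpiSC and at 0.0304 and 0.0697 in pEF, and was the only member of the 37 below the filter of 1 TPM in at least 2 libraries.

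**Figure D1:**
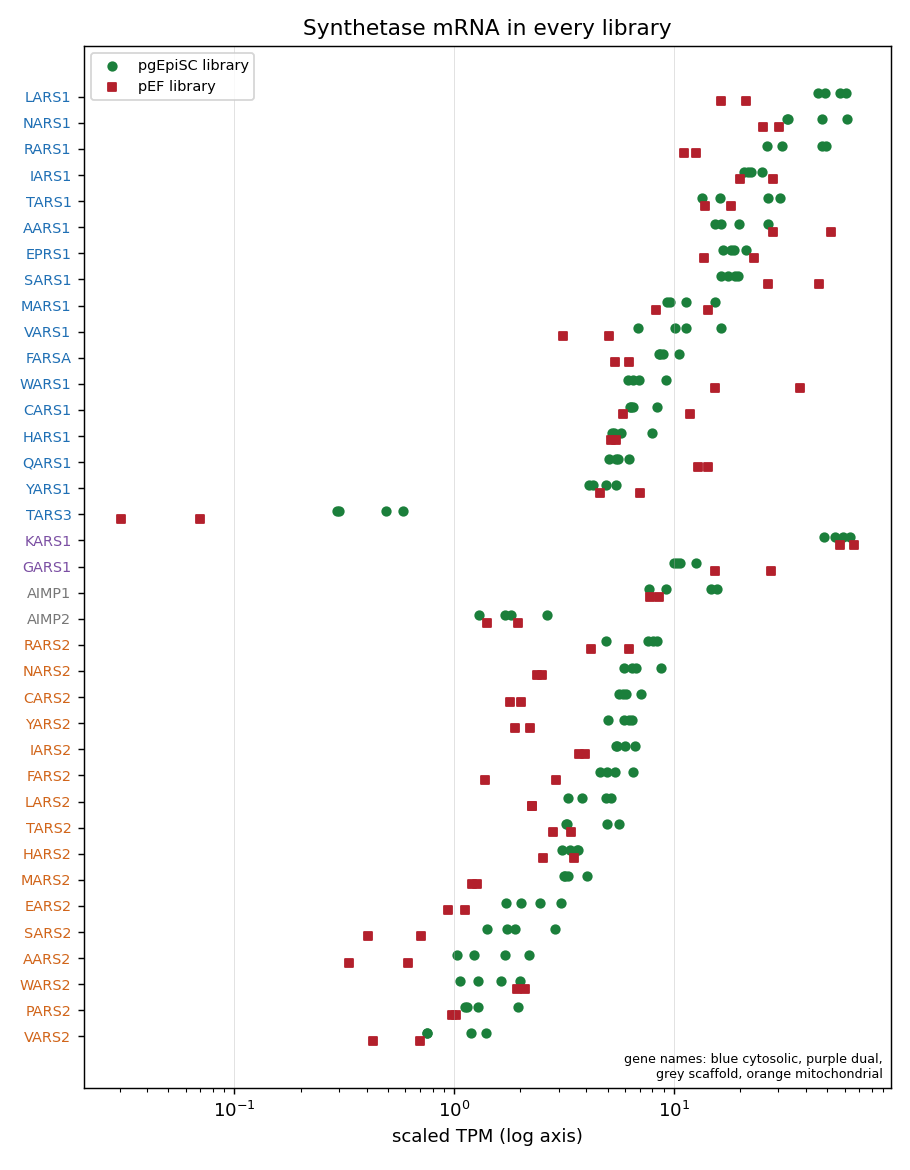
Scaled TPM (log axis) of the 37 members in each library, with green circles for the 4 pgEpiSC libraries and red squares for the 2 pEF libraries, ordered by class and then by mean level in pgEpiSC. KARS1 lies between 48.2 and 66.1 in all libraries, LARS1 and RARS1 are higher in every pgEpiSC library, WARS1 and QARS1 are higher in both pEF libraries, and most mitochondrial enzymes lie to the right in pgEpiSC.

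Most mitochondrial enzymes had higher mRNA levels in the epiblast stem cells. Of the 16, 10 were called higher in pgEpiSC, 0 lower, and 6 were not called (limma, threshold of 0.05 on p-values adjusted by Benjamini and Hochberg's method). The background is large: 57.9% of tested genes were called in one direction or the other on scaled TPM, 28.9% higher and 29.0% lower, against 62.5% higher and 0 lower among these 16. Their median log2 fold was 0.69, which is 0.62 above the median of all tested genes. On TPM as deposited the median was 1.04, or 0.56 above that of all genes. There 3 of the 16 were called higher (18.8%), close to the 18.0% of all tested genes (27.4% were called in either direction). In bulk RNA, less mRNA per cell and fewer cells that make it cannot be told apart. AARS2, PARS2, SARS2 and VARS2 passed the filter through pgEpiSC alone. Of the other 12, which reached 1 TPM in a library of each group, 8 were called higher.

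CARS2, which charges mitochondrial cysteine tRNA, had the largest log2 fold of the mitochondrial set on log2(scaled TPM + 1), while by the plain ratio of group means the low SARS2 was higher (3.57, against 3.24 for CARS2). CARS2 was at 5.85, 7.08, 6.08 and 5.66 scaled TPM in pgEpiSC-1 to pgEpiSC-4 and at 1.79 and 2.02 in pEF, a log2 fold of 1.30 ± 0.16 (SE, adjusted p = 0.000264). Every pgEpiSC library was above both pEF libraries by a wide margin. NARS2, the asparagine enzyme, was at 5.97, 6.74, 8.77 and 6.43 against 2.51 and 2.39, a log2 fold of 1.20 ± 0.18 (adjusted p = 0.000850). The tyrosine enzyme YARS2 was at 6.49, 5.01, 5.97 and 6.29 against 1.89 and 2.21, a log2 fold of 1.18 ± 0.16 (adjusted p = 0.000508). These 3 were also called on TPM as deposited, at log2 folds of 1.71, 1.64 and 1.59. MARS2, the methionine enzyme, was at 3.17, 4.01, 3.30 and 3.20 against 1.27 and 1.21, a log2 fold of 0.98 ± 0.15 (adjusted p = 0.000872). It was not called on TPM as deposited, where its fold was 1.35 and its adjusted p 0.0690.

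The other called mitochondrial enzymes had smaller or less steady folds on log2(scaled TPM + 1). FARS2, for phenylalanine, was at 4.98, 4.63, 6.55 and 5.39 in pgEpiSC and at 1.38 and 2.92 in pEF, where the libraries differed 2.11-fold (log2 fold 1.06 ± 0.23, adjusted p = 0.00511). SARS2 (serine) and AARS2 (alanine), both under 1 scaled TPM in each pEF library, had folds of 0.92 and 0.77, but plain ratios of group means of 3.57 and 3.24. EARS2 (glutamate), LARS2 (leucine) and IARS2 (isoleucine) had folds of 0.69, 0.69 and 0.52. Not called were VARS2 (valine), PARS2 (proline), RARS2 (arginine), TARS2 (threonine) and HARS2 (histidine), with folds of 0.36, 0.24, 0.41, 0.34 and 0.15. WARS2, for tryptophan, was also not called and was the only mitochondrial enzyme with a fold below 0, at 1.99, 1.29, 1.06 and 1.63 against 2.11 and 1.94. Its fold was -0.30 on scaled TPM and 0.07 on TPM as deposited. Leaving out pEF-1 kept the calls of CARS2, MARS2, NARS2 and YARS2. Those of FARS2, SARS2, AARS2, EARS2, LARS2 and IARS2 were lost, at folds between 0.40 and 0.76. Leaving out pEF-2 lost the calls of EARS2, LARS2 and IARS2, at folds of 0.75, 0.68 and 0.55. Each of these fits had 1 pEF library, and fewer of all tested genes were called in it than with both. The call of IARS2 was also lost without pgEpiSC-3 (adjusted p = 0.0531).

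**Figure D2:**
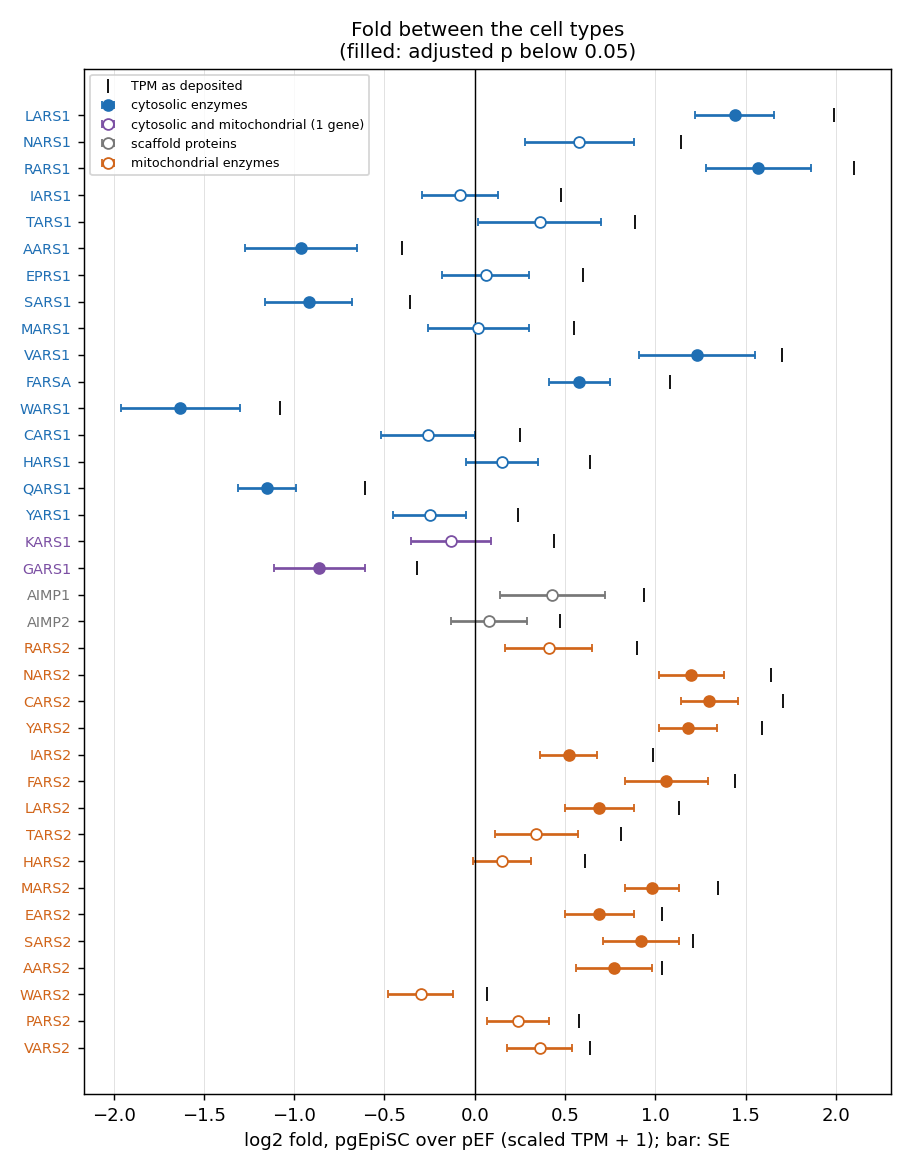
Log2 fold of each tested member, pgEpiSC over pEF, on scaled TPM + 1 with its SE (filled circles: adjusted p below 0.05), and the fold on TPM as deposited (black ticks). Mitochondrial enzymes (orange) lie at or right of 0 except WARS2, cytosolic enzymes (blue) lie on either side, and the ticks are shifted to the right of every circle.

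Cytosolic enzymes were called in both directions on scaled TPM, at about the rate of all tested genes. Of 16 tested, 4 were called higher in pgEpiSC, 4 lower, and 8 were not called. Those shares of 25.0% each are close to the background, and the median log2 fold was 0.04, or 0.03 below that of all tested genes (0.58 on TPM as deposited, or 0.09 above). As deposited, 3 were called higher (18.8%, against 18.0% of all tested genes) and 0 lower (against 9.43%). LARS1 was at 60.6, 45.6, 49.1 and 56.9 scaled TPM in pgEpiSC and at 16.4 and 21.4 in pEF, a log2 fold of 1.44 ± 0.22 (adjusted p = 0.000904). Besides charging leucine tRNA, its protein is known as a leucine sensor upstream of mTORC1. RARS1 was at 47.1, 26.5, 31.1 and 49.3 against 11.1 and 12.7, a log2 fold of 1.57 ± 0.29 (adjusted p = 0.00226). The lowest pgEpiSC library of each gene was above 2 times the higher pEF library. VARS1, the valine enzyme, was at 10.1, 16.5, 11.4 and 6.89 against 3.14 and 5.10, a log2 fold of 1.23 ± 0.32 (adjusted p = 0.0111). These 3 were called on TPM as deposited too, at log2 folds of 1.99, 2.10 and 1.70. VARS1 lost its call without pEF-1 (0.86, adjusted p = 0.141). FARSA, the catalytic subunit of the cytosolic phenylalanine enzyme, was at 8.58, 10.6, 8.90 and 8.69 against 5.38 and 6.26, and its call (0.58 ± 0.17, adjusted p = 0.0200) was lost without either pEF library (adjusted p = 0.208 without pEF-1 and 0.0544 without pEF-2).

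The 4 cytosolic enzymes that were lower in pgEpiSC were WARS1, QARS1, AARS1 and SARS1, and the dual enzyme GARS1 (glycine) was lower as well. WARS1 was at 6.53, 9.22, 6.96 and 6.22 scaled TPM in pgEpiSC and at 15.5 and 37.4 in pEF, a log2 fold of -1.63 ± 0.33 (adjusted p = 0.00351). QARS1, the glutamine enzyme, was at 5.49, 6.29, 5.57 and 5.08 against 14.3 and 12.9, a log2 fold of -1.15 ± 0.16 (adjusted p = 0.000617). QARS1 was the steadiest of the 5, with little spread in either group. AARS1 was at 19.8, 26.8, 15.4 and 16.4 against 28.2 and 52.0, so pgEpiSC-2 came close to pEF-1 (log2 fold -0.96 ± 0.31, adjusted p = 0.0286). SARS1 was at 17.7, 19.6, 16.5 and 19.0 against 26.9 and 46.0 (-0.92 ± 0.24, adjusted p = 0.0128). GARS1 was at 10.7, 12.7, 10.4 and 10 against 15.4 and 27.7 (-0.86 ± 0.25, adjusted p = 0.0180). In 4 of these 5 genes pEF-2 was clearly above pEF-1, QARS1 being the exception. Without pEF-2 the calls of AARS1, SARS1 and GARS1 were lost (adjusted p = 0.241, 0.105 and 0.151), whereas those of WARS1 and QARS1 stood. AARS1 also lost its call without pgEpiSC-1, pgEpiSC-3 or pgEpiSC-4 (adjusted p = 0.0543, 0.0680 and 0.0630). On TPM as deposited none of the 5 was called by limma, where 9.43% of all tested genes were called lower. Their folds there were still below 0, at -1.08 for WARS1, -0.61 for QARS1, -0.40 for AARS1, -0.36 for SARS1 and -0.32 for GARS1. Without pEF-2, however, the deposited folds of AARS1, SARS1 and GARS1 turned positive, at 0.35, 0.34 and 0.40 (not called).

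Over all 36 tested members, 14 were called higher and 5 lower in pgEpiSC, or 52.8% called against the 57.9% of all tested genes. On TPM as deposited 6 were called higher (16.7%, against 18.0% of all tested genes) and 0 lower (against 9.43%). The 6 were LARS1, RARS1, VARS1, CARS2, NARS2 and YARS2. That count of 6 became 2 without pgEpiSC-3 and 7 to 9 without another pgEpiSC library. Over all tested genes, 1874 were called higher as deposited, 1057 without pgEpiSC-3, and 1900 to 2270 without another pgEpiSC library. Both the members and all tested genes had fewer higher calls without pEF-1 or pEF-2, each fit then having 1 pEF library. On scaled TPM the higher calls also became fewer in both, among members and all tested genes. CARS1 was an added lower call without pEF-1 (-0.83), and without pEF-2 fewer members and fewer of all tested genes were called lower. The libraries of the groups did not overlap for 17 members that were higher in pgEpiSC and 5 that were lower, where 36.8% and 33.9% of all tested genes did so. The 17 include AARS2, PARS2, SARS2 and VARS2, which passed the filter through pgEpiSC alone. Of the 32 members that passed it in both groups, 12 were called higher and 5 lower. Cytosolic members with no call were CARS1 (cysteine), EPRS1 (glutamate and proline), HARS1 (histidine), IARS1, MARS1 (methionine), NARS1, TARS1 and YARS1 (tyrosine). EPRS1 was at 18.8, 21.4, 18.3 and 16.7 against 13.7 and 23.3, so pEF held both the lowest and the highest library. IARS1 was likewise at 20.1 and 28.3 in pEF, around a range of 21.0 to 25.2 in pgEpiSC. NARS1 did not overlap (61.6, 33.0, 32.8 and 47.2 against 25.6 and 30.1) and still missed the threshold (0.58 ± 0.30, adjusted p = 0.124).

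Genes of the multi-synthetase complex were called in both directions. Of 9 members in the set, LARS1 and RARS1 were higher, QARS1 was lower, and EPRS1, IARS1, KARS1, MARS1, AIMP1 and AIMP2 were not called. The 33.3% called is below the 57.9% of all tested genes. The scaffold gene AIMP1 was at 15.7, 7.73, 9.22 and 14.8 in pgEpiSC and at 8.55 and 7.82 in pEF (0.43 ± 0.29, adjusted p = 0.232). Its pgEpiSC values spanned the pEF level in libraries 2 and 3 and lay well above it in libraries 1 and 4. AIMP2 was much lower in abundance, at 1.82, 2.66, 1.70 and 1.30 against 1.42 and 1.95. From the list of partner genes, EEF1E1, which encodes the remaining scaffold protein AIMP3, was at 16.5, 9.54, 10.1 and 17 against 3.63 and 3.72, and was called higher (1.57 ± 0.27, adjusted p = 0.00153).

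The ratio of a cytosolic enzyme to its mitochondrial counterpart within a library does not depend on the scaling. The summed TPM of the 17 cytosolic enzymes was 5.65, 4.48, 3.86 and 5.22 times that of the 16 mitochondrial ones in pgEpiSC-1 to pgEpiSC-4, and 6.59 and 10.2 times in pEF-1 and pEF-2. Both pEF libraries thus lay above all pgEpiSC libraries, but pEF-1 was nearer to pgEpiSC-1 than to pEF-2. With medians in place of sums the ratio was 3.04, 3.56, 2.66 and 2.97 against 7.46 and 6.83, and the gap between the groups was wider than either group's range. The summed mitochondrial enzymes alone came to 59.3, 65.2, 68.1 and 58.7 scaled TPM in pgEpiSC and 33.1 and 32.6 in pEF, while the summed cytosolic enzymes overlapped (335, 292, 263 and 306 against 218 and 333).

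Of 14 amino acids with an enzyme of each kind in the table, the ratio was lower in every pgEpiSC library than in either pEF library for 7 and higher for 2, and the groups overlapped for 5. Groups without overlap were common in these data, as the shares of single genes above show, and the tryptophan ratio was among the 7 by a narrow margin (7.15 in pgEpiSC-2 against 7.33 in pEF-1). The alanine ratio, AARS1 over AARS2, was 16.0, 12.2, 9.05 and 15.9 in pgEpiSC and 84.6 and 84.1 in pEF. The serine ratio, SARS1 over SARS2, was 10.1, 6.81, 8.76 and 13.4 against 66.0 and 65.3. These widest gaps rest on AARS2 and SARS2, which were under 1 scaled TPM in pEF and, like VARS2 in the valine ratio, passed the filter through pgEpiSC alone. For cysteine the ratio was 1.12, 1.19, 1.04 and 1.13 against 3.28 and 5.92, and for tyrosine 0.660, 1.09, 0.827 and 0.653 against 2.46 and 3.19. YARS2 mRNA thus exceeded YARS1 mRNA in 3 of 4 pgEpiSC libraries and in neither pEF library. Isoleucine, methionine and tryptophan completed the 7. Arginine and valine went the other way: RARS1 over RARS2 was 5.86, 5.36, 4.06 and 5.85 against 1.78 and 3.02, and VARS1 over VARS2 was 13.4, 11.8, 9.59 and 9.19 against 7.36 and 7.30. The histidine ratio was nearly the same in both cell types (1.76 ± 0.299, SD, n = 4, against 1.81 ± 0.463, SD, n = 2).

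**Figure D3:**
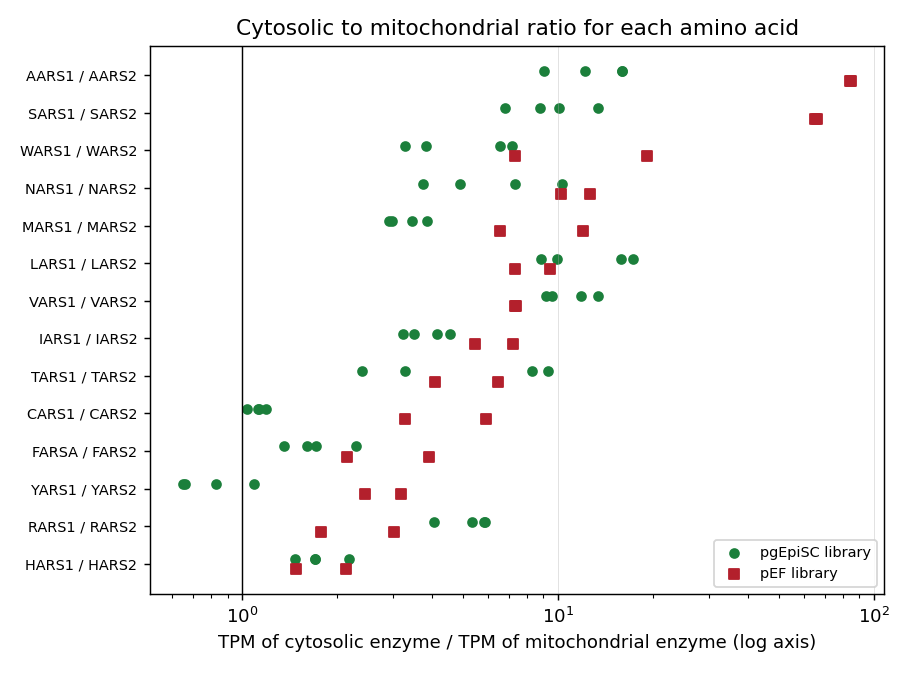
Ratio of cytosolic to mitochondrial TPM (log axis) for 14 amino acids, with green circles for pgEpiSC libraries and red squares for pEF libraries, ordered by the mean pEF ratio. The alanine and serine ratios lie above 60 in pEF and below 17 in pgEpiSC, and the vertical line marks a ratio of 1, which tyrosine straddles in pgEpiSC.

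Between the 2 fibroblast libraries the cytosolic enzymes had a median log2 difference of 0.49, pEF-2 over pEF-1, and the mitochondrial enzymes one of 0.05. With 1 library on each side there is no test, and the values compare these libraries alone. Of 36 tested members, 28 were higher in pEF-2 and 8 in pEF-1 on scaled TPM, where 55.3% of all tested genes were higher in pEF-2. On TPM as deposited 36 of 36 were higher in pEF-2, as were 90.5% of all tested genes. On log2(scaled TPM + 1), a difference of at least 1 unit was reached by 1 member, WARS1, toward pEF-2, and by 0 toward pEF-1, against 1.66% and 2.26% of all tested genes. By the plain ratio of scaled TPM, 3 members (WARS1, FARS2 and CARS1) were at least 2 times higher in pEF-2, against 8.32% of all tested genes. WARS1 was at 15.5 scaled TPM in pEF-1 and at 37.4 in pEF-2, a 2.41-fold difference. The mitochondrial FARS2 had a ratio of 2.11 at lower levels (1.38 and 2.92). CARS1 was at 5.87 and 11.9, AARS1 at 28.2 and 52.0, GARS1 at 15.4 and 27.7, and SARS1 at 26.9 and 46.0. The mitochondrial AARS2 and SARS2, both under 1 scaled TPM in pEF, had ratios of 1.85 and 1.73, close to those of AARS1 (1.84) and SARS1 (1.71). EPRS1 went from 13.7 to 23.3 and MARS1 from 8.35 to 14.4.

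ATF4 is known to induce a list of 12 synthetases, which held the 5 largest differences on log2(scaled TPM + 1) but not the 5 largest plain ratios. The list was chosen with earlier results of these data known, and a part of ATF4 in these differences was not tested. All 12 of that list (AARS1, CARS1, EPRS1, GARS1, IARS1, LARS1, MARS1, NARS1, SARS1, TARS1, WARS1 and YARS1) were higher in pEF-2 than in pEF-1, as were 55.3% of all tested genes. The differences were 0.22 to 1.22 log2 units with a median of 0.72. Of the 6 tested cytosolic and dual enzymes outside the list (FARSA, HARS1, KARS1, QARS1, RARS1 and VARS1), 5 were also higher in pEF-2. These 6 had a median difference of 0.18 and a range from -0.14 to 0.56. The 16 mitochondrial enzymes had a median of 0.05 and ranged from -0.48 for RARS2 to 0.72 for FARS2, and all tested genes had a median of 0.03. In the comparison of the cell types the 12 of the list gave 1 higher call (LARS1) and 4 lower ones. The lower share was 33.3%, against 29.0% of all tested genes. On TPM as deposited 0 of the 12 were called lower, against 9.43% of all tested genes. Their median fold was -0.16 on scaled TPM and 0.36 on TPM as deposited, below the all-gene median on both scales. The summed scaled TPM of the 12 was 195 in pEF-1 and 318 in pEF-2, with 269, 236, 210 and 241 in pgEpiSC, so the pgEpiSC libraries lay between the fibroblast libraries.

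**Figure D4:**
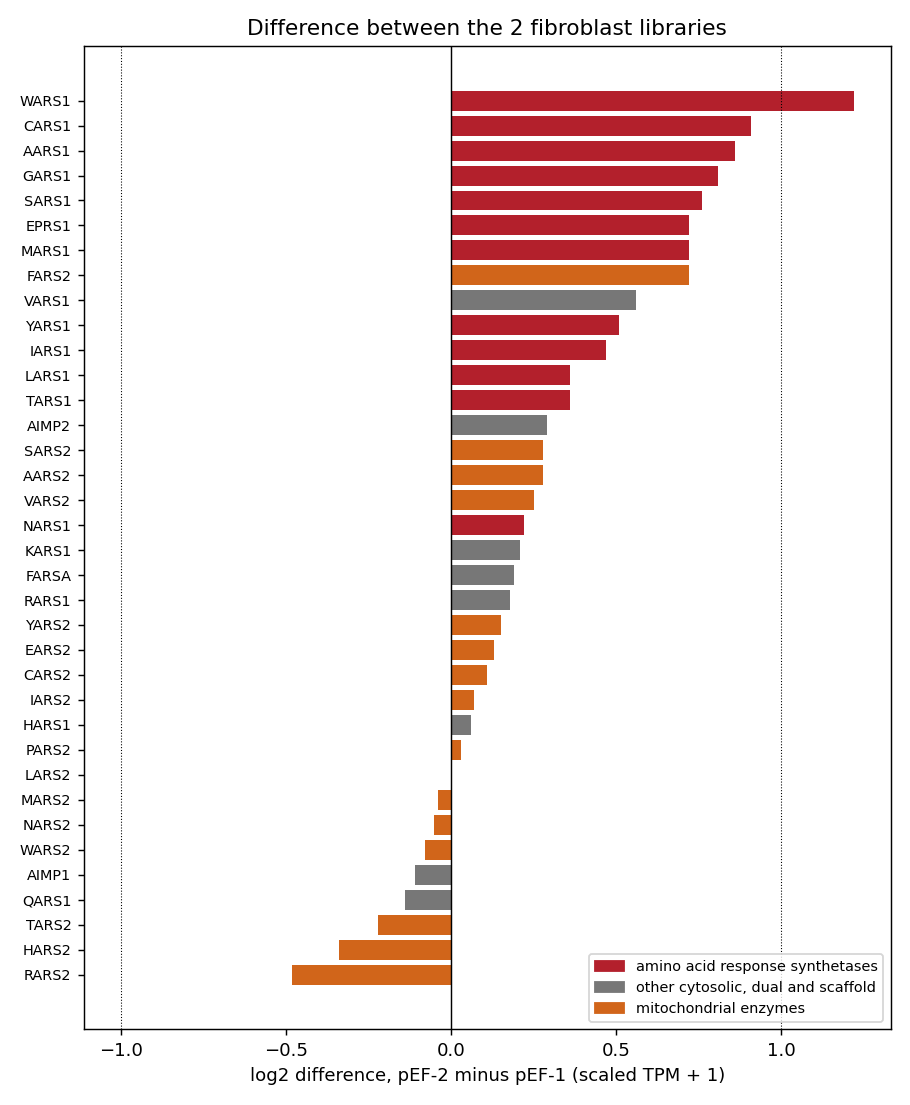
Log2 difference of scaled TPM + 1 between pEF-2 and pEF-1 for the 36 tested members, in order of size, with red bars for the 12 amino acid response synthetases, orange bars for mitochondrial enzymes and grey bars for the rest. The 5 highest bars are red and WARS1 alone passes the dotted line at 1, while the 3 lowest bars are the mitochondrial TARS2, HARS2 and RARS2.

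Other genes of the amino acid response did not differ between the fibroblast libraries in 1 direction. Of 14 tested genes of that list, 9 were higher in pEF-2 (64.3%, against 55.3% of all tested genes) and 5 in pEF-1. ASNS, asparagine synthetase and a standard ATF4 target, was at 18.6 in pEF-1 and 61.0 in pEF-2, while the 4 pgEpiSC libraries held it between 50.7 and 53.7. It was not called between the cell types (0.62 ± 0.41, adjusted p = 0.220), but was called higher in pgEpiSC without pEF-2 (1.44, adjusted p = 0.00508). ATF5, and TRIB3 and CHAC1, which lay below the filter and were not among the 14, were named after their values were seen and were likewise higher in pEF-2, at 1.97 and 6.70, 1.42 and 4.26, and 0.628 and 1.85. NUPR1, a stress-induced chromatin protein, went the other way, at 555 in pEF-1 and 155 in pEF-2, and so did DDIT4, an mTORC1 inhibitor, at 22.2 and 12.8. ATF4 and DDIT3 had no row under their symbols and were not analysed here.

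Between the cell types most of the amino acid response list was lower in the stem cells. Of 14 tested genes, 8 were called lower (57.1%, against 29.0% of all tested genes), 1 higher and 5 were not called. The median log2 fold was -1.12 on scaled TPM and -0.72 on TPM as deposited. As deposited, 4 were called lower (28.6%, against 9.43% of all tested genes). NUPR1 was at 4.54, 0.689, 0.931 and 3.93 in pgEpiSC (log2 fold -6.58 ± 0.64). VLDLR, a lipoprotein receptor, was at 0.690 to 1.03 against 20.8 and 26.1, a log2 fold of -3.70 ± 0.17. CEBPB, a transcription factor, and DDIT4 had folds of -2.65 ± 0.23 and -2.06 ± 0.27. The 4 adjusted p were between 2.23e-06 and 0.000370. Several of these genes respond to other signals as well and differ in level between cell types. The 1 higher gene was CTH, named here after its values were seen, which makes cysteine from cystathionine, at 26, 13.4, 17.7 and 28.3 against 5.06 and 9.10 (1.46 ± 0.34, adjusted p = 0.00684), a call lost without pEF-1 (0.99, adjusted p = 0.110). The kinase gene EIF2AK4, also named after its values were seen, was not called (-0.17, adjusted p = 0.416).

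Partner genes of tRNA charging include editing proteins, hydrolases and elongation factors. Of 12 tested, 8 were called higher, 1 lower and 3 not, against 28.9% and 29.0% of all genes, and 6 higher and 0 lower on TPM as deposited. AARSD1, an alanyl-tRNA editing protein, was at 15.9, 23.8, 18.1 and 17.8 against 4.71 and 6.67 (1.57 ± 0.22), and PTRH2, a mitochondrial peptidyl-tRNA hydrolase, at 28.2, 15, 17.5 and 24.4 against 8 and 4.98 (1.56 ± 0.30). DTD2, a deacylase that clears mischarged tRNA, was at 10.2, 7, 7.94 and 12.5 against 4.61 and 2.5 (1.20 ± 0.27, adjusted p = 0.00633), a call lost without pEF-2 (0.85, adjusted p = 0.0788). Fewer of the 12 were called higher when either pEF library was left out, as were fewer of all tested genes.

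Among partners of mitochondrial translation, 9 of 19 were called higher (47.4%, against 28.9% of all tested genes), 0 lower and 10 not, with a median log2 fold of 0.53. QRSL1, a subunit of the amidotransferase that turns Glu-tRNA(Gln) into Gln-tRNA(Gln) in mitochondria and so stands in for a mitochondrial glutamine enzyme, was at 8.78, 4.50, 4.96 and 7.25 against 1.99 and 2.61 (1.12 ± 0.26, adjusted p = 0.00640), a call lost without pEF-1 (0.92, adjusted p = 0.0865). GATC, another subunit of the same enzyme, was at 1.12 to 1.57 against 1.08 and 1.04 and was not called (0.16, adjusted p = 0.362). MTFMT, which formylates the initiator Met-tRNA, was at 3.03 to 5.84 against 4.95 and 4.00, and was not called (0.03 ± 0.23). The elongation factor GFM1, the tRNA-modifying GTPBP3 and the tRNA methyltransferase subunit TRMT10C had the largest folds beside QRSL1, at 1.25, 0.85 and 1.31. On TPM as deposited 3 of the 19 were called higher (15.8%, below the 18.0% of all tested genes). Fewer of the 19 were also called higher on scaled TPM without pEF-1 or without pEF-2, as were fewer of all tested genes.

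Within the stem cells, the highest pgEpiSC library exceeded the lowest by a median of 1.5-fold over the 36 tested members, with extremes of 1.19-fold for HARS2 and 2.40-fold for VARS1, while the median over all tested genes was 1.70-fold. VARS1 was highest in pgEpiSC-2 at 16.5 and lowest in pgEpiSC-4 at 6.89. TARS1 was at 30.4, 13.5, 16.3 and 27.0, and RARS1, NARS1 and AIMP1 were likewise higher in libraries 1 and 4 than in libraries 2 and 3. Library pgEpiSC-2 held the highest value of 25 of the 36 members. The share of all tested genes highest in that library was not computed, so the count cannot be called particular to the members. The factor by which the TPM of pgEpiSC-2 was divided was also the largest of the 6, and the part of the scaling in that count was not tested. Leaving out both pgEpiSC-1 and pgEpiSC-4, chosen after the data were seen, gave 16 higher and 2 lower calls among the 36, and leaving out both pgEpiSC-2 and pgEpiSC-3 gave 17 higher and 5 lower. Over all tested genes the first choice gave 3471 higher and 2316 lower calls, and the second gave 3305 and 3404. With all 6 libraries there were 3010 and 3024.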

How the data were processed

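RNA-seq of 4 pgEpiSC and 2 pEF libraries was analysed from 1 table of TPM values deposited by the authors, with 1 column per library. Per the submitters' processing notes, the tools included STAR 2.6.0c and kallisto 0.44.0, with no role stated. Build and annotation are likewise not given in the sources used here, so no coordinates are printed, and protein and promoter sequences were not used here. Of 20132 rows, 14062 (69.8%) matched a symbol, and 2 rows sharing a symbol were summed. Members, lists and the scaling were chosen with earlier results of these data known. Because column sums differed several-fold, TPM was divided by median-ratio factors (5495 genes at 1 TPM or more in all 6 libraries, geometric mean of the factors 1). Genes with at least 1 TPM as deposited in at least 2 libraries were tested with limma 3.58.1 (R 4.3.3) on log2(scaled TPM + 1), with group as the factor, an empirical Bayes variance with a trend and Benjamini-Hochberg adjustment over all tested genes. Folds on this scale understate the change of low genes. The limma fit was first tested on simulated log2 values with known changes in a small part of the genes. The scaling was not part of that simulation, and far fewer genes changed in it than were called here. Some partner genes are not reported here. Named were all members in the table, fixed partner genes where present, up to 4 called genes per partner list by absolute fold, and the marker genes. The alternatives were other scalings, pseudocounts, filters and variance models, a replicate block, and libraries left out. Python 3.11.15 with pandas 2.3.3, numpy 2.4.6 and matplotlib 3.10.9 made the tables and figures.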

Additional observations from a re-analysis of the deposited data

Results flagged for a closer look

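In 75 sets of 4 pgEpiSC values (member, partner and marker genes and the class ratios), 4 had 1 library farther from the rest than Dixon's 95% critical value, a rate that chance gives in about 1 set in 20. CARS1 was highest in pgEpiSC-2 at 8.43 scaled TPM, as were FARSA at 10.6 and MARS2 at 4.01. PECAM1, an endothelial gene, was highest in pgEpiSC-3 at 0.302 scaled TPM, near the 0.284 of pEF-1.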

How the results depend on the processing

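Over the alternatives run on all 6 libraries, 0 of the 19 called members changed the sign of their fold, and the same calls were made with pseudocounts of 0.1 and 5, without a variance trend and with a robust variance. Other scalings changed counts. As deposited, members called higher and lower were 6 and 0 (mitochondrial higher 3, cytosolic lower 0, complex lower 0, amino acid response synthetases lower 0, charging partners lower 0, mitochondrial translation partners higher 3, amino acid response genes lower 4). Rescaling to 1000000 gave 9 members, 6 mitochondrial enzymes, 5 charging partners and 3 mitochondrial translation partners called higher. Quantile normalization gave 2 amino acid response synthetases higher and 0 charging partners lower. Requiring a mean of 5 TPM or more, which tests fewer genes, left 9 members, 5 mitochondrial enzymes and 4 mitochondrial translation partners higher and 4 response genes lower.

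Folds of uncalled genes turned sign: as deposited CARS1 0.25, IARS1 0.48, YARS1 0.24, KARS1 0.44 and WARS2 0.07; rescaled EPRS1 -0.16, HARS1 -0.06, MARS1 -0.20, HARS2 -0.03, AIMP2 -0.10 and MTFMT -0.19; after quantile normalization IARS1 0.01. Without pgEpiSC-1 and pgEpiSC-4 they were IARS1 0.12, YARS1 0.01, KARS1 0.00 and MTFMT -0.07, with 2 members and 2 cytosolic enzymes lower; without pgEpiSC-2 and pgEpiSC-3 they were EPRS1 -0.02, MARS1 -0.21 and AIMP2 -0.07.

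With the replicate block, 2 members, 2 cytosolic enzymes, 1 amino acid response synthetase and 0 charging partners were lower, and MTFMT was at -0.12. The labels say only that the libraries share a number, and deviations of same-numbered libraries correlated at 0.07 and 0.11.

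With 1 library left out, counts ranged from 6 to 15 members higher and 2 to 6 lower (as deposited 0 to 9, with 9, 7, 2 and 8 without pgEpiSC-1 to pgEpiSC-4 and 0 and 2 without pEF-1 and pEF-2, and 0 to 1; there AARS1, SARS1 and GARS1 changed sign without pEF-2), 4 to 11 mitochondrial enzymes higher, 2 to 4 cytosolic higher and 2 to 5 lower, 1 to 5 amino acid response synthetases lower, 0 to 2 response genes higher, 4 to 8 charging partners higher and 0 to 2 lower, and 4 to 10 mitochondrial translation partners higher. With 1 pEF library left, it is assumed to vary like pgEpiSC, and fewer of all tested genes were called higher there as well. Folds ranged from -0.14 to 0.22 for AIMP2, -0.32 to 1.44 for ASNS, -0.83 to 0.19 for CARS1, -0.41 to 0.41 for EPRS1, -0.03 to 0.24 for HARS2, -0.42 to 0.15 for IARS1, -0.45 to 0.37 for MARS1 and -0.10 to 0.18 for MTFMT.

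The mean cytosolic to mitochondrial ratio in pgEpiSC, 4.80 by sums, was 3.06 by medians, 5.87 with dual enzymes as cytosolic and 3.95 without LARS1. In pEF the means were 8.4, 7.14, 10.9 and 7.82 in the same order. Members at least 1 log2 unit higher in pEF-2 than in pEF-1 numbered 11 as deposited, 3 rescaled, 2 after quantile normalization and 3 with a pseudocount of 0.1. As deposited, 90.5% of all tested genes were higher in pEF-2 by any amount. The share of all tested genes past 1 log2 unit is given here only for the main setting. The cause of these shifts was not tested.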
